A study of Mus musculus with 9 samples.

Results

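The 37 genes described here mark the astrocyte, the star-shaped glial cell of the brain. They were listed by symbol, with earlier results of these data known: 18 genes of astrocyte identity (Aqp4, Aldh1l1, Slc1a2, Slc1a3, Gja1, Gjb6, S100b, Sox9, Glul, Fgfr3, Slc4a4, Ntsr2, Acsbg1, Mlc1, Atp1b2, Gpc5, Cldn10 and Ndrg2) and 19 genes of the reactive astrocyte (Gfap, Vim, Lcn2, Serpina3n, Cd44, Osmr, Timp1, Steap4, S1pr3, Cp, Aspg, Fbln5, Srgn, Emp1, Tgm1, Ptx3, S100a10, Cd109 and Slc10a6). All 37 were found among the 54532 Ensembl gene IDs counted. Polyadenylated RNA was sequenced from the striatum, a deep forebrain nucleus, of cGAS KO mice (3 libraries), STING KO mice (3 libraries) and wild-type (WT) mice (3 libraries). Both deficiencies were made with CRISPR-Cas9, and all mice share the C57BL/6J background. The design text places the tissue after an ischemic stroke. cGAS senses DNA in the cytosol and makes cGAMP, the ligand of STING. The labels state neither age, sex, hemisphere nor hours since the stroke, and uninjured tissue was not analysed here. Genotypes are therefore what is compared, and whether any level here differs from that of uninjured striatum cannot be told. The labels also do not say whether replicates are separate animals, so a p-value reflects the spread among these libraries, which may be technical.

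Astrocytes clear glutamate and potassium from the synapse, wrap vessels with endfeet rich in water channels and share metabolites through gap junctions. After injury they become reactive: they build intermediate filament, secrete acute-phase and matrix proteins, and respond to cytokines of the interleukin-6 family through the receptor subunit gp130 and the transcription factor STAT3. Sets of reactive genes named A1, described in mouse after bacterial endotoxin, and A2, described in mouse after ischemia, have been distinguished. In bulk tissue, fewer astrocytes and less RNA per astrocyte cannot be told apart. Several reactive genes are also made by microglia, vessels or meninges.

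Library totals were 14129021 to 21286775 counts, which puts a floor of 3 counts at 0.135 to 0.226 CPM, counting error only. Levels and this floor are in CPM, counts scaled to library size with factors from the trimmed mean of M values (TMM). One library of each genotype stood apart: replicate 2 of cGAS KO, replicate 2 of STING KO and replicate 3 of WT. In these, 2280 to 4723 genes had 1 to 9 counts, against 7096 to 7927 genes in the other 6. They are named low-complexity libraries here, on the basis of the data and not of a label. The biological coefficient of variation came to 38.8% with them and 17.2% without them, and the main results are given both ways. Fold changes are log2 values with a standard error (SE).

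Identity genes were abundant and reactive genes scarce in every genotype. Per kilobase of annotated exon, identity genes ran between 5.08 CPM per kb for Cldn10, a claudin of tight junctions, and 314 CPM per kb for Glul, the glutamine synthetase, with a median of 33.2. The median of the 19 reactive genes was 0.525 CPM per kb. Reactive genes above the lowest identity gene numbered 3: Gfap, the glial filament protein, at 24.1 CPM per kb, Vim, the filament vimentin, at 8.35, and S100a10, a partner of annexin, at 5.27. The other 16 lay between 0.0316 CPM per kb for Slc10a6, a transporter of sulfated steroids, and 2.20 for Serpina3n, a secreted protease inhibitor.

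**Figure D1:**
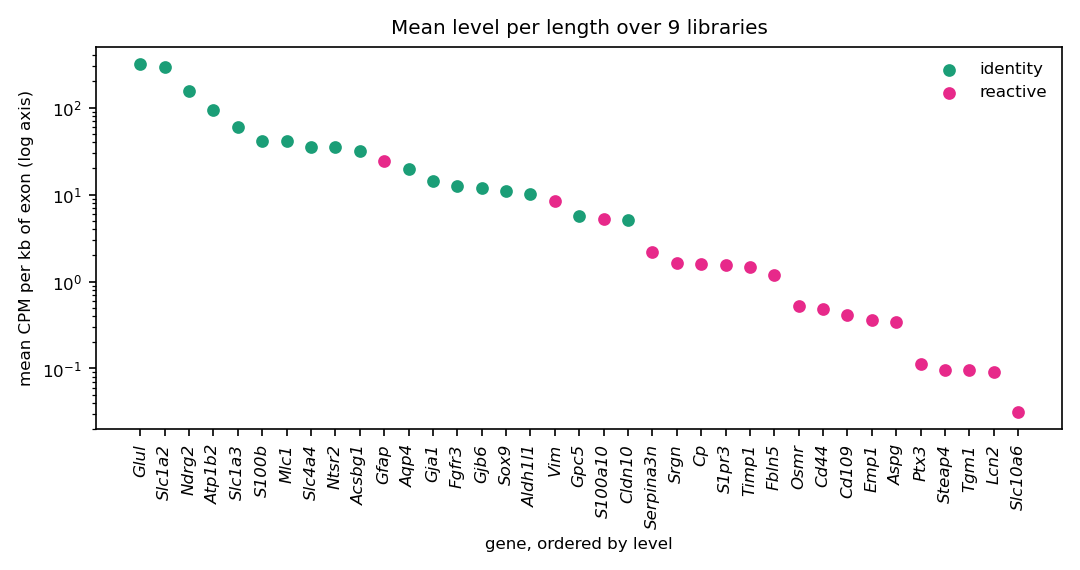
Mean level of each of the 37 genes over the 9 libraries, in TMM-normalised CPM per kb of exon on a log axis, in order of level and coloured by identity or reactive list. Glul is highest at 314 CPM per kb, and 16 of the 19 reactive genes lie below the lowest identity gene, Cldn10, at 5.08.

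Several markers of reactive astrocytes were at or near the counting floor, and without uninjured libraries or a stated hemisphere these low levels cannot be set against an uninjured level, so the stated injury was not checked here. Lcn2, the iron-siderophore binder lipocalin 2, had 4, 2 and 0 counts in the cGAS KO libraries, 4, 0 and 14 in the STING KO libraries and 5, 4 and 4 in the WT libraries. Slc10a6 had 0 counts in 5 of the 9 libraries and at most 5 in any, Tgm1, a transglutaminase, had 0 to 13 counts per library, and Ptx3, a secreted pentraxin, had 0 to 14. Steap4, a metalloreductase, had 7, 0 and 5 counts in the cGAS KO libraries, 5, 0 and 3 in the STING KO libraries and 30, 3 and 0 in the WT libraries. Its single high value was in WT replicate 1, the library with the most choroid plexus RNA, at 2874 CPM summed over 11 markers against 29.96 to 594 CPM in the other 8, and the part of that tissue in the value was not tested. Timp1, an inhibitor of matrix proteases, had 0.928, 1.96 and 1.05 CPM in cGAS KO striatum, 0.870, 0.627 and 0.894 CPM in STING KO striatum and 0.768, 0.430 and 4.32 CPM in WT striatum. WT replicate 3 was the highest and WT replicate 2 the lowest of all 9. Timp1 lies inside Syn1 on the opposite strand with 0 shared exon bases, and Syn1 had 58486 counts in all against 183 for Timp1. Lcn2, Steap4, Tgm1 and Slc10a6 did not pass the filter on low counts, so 15 of the 19 reactive genes and all 18 identity genes were tested.

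**Figure D2:**
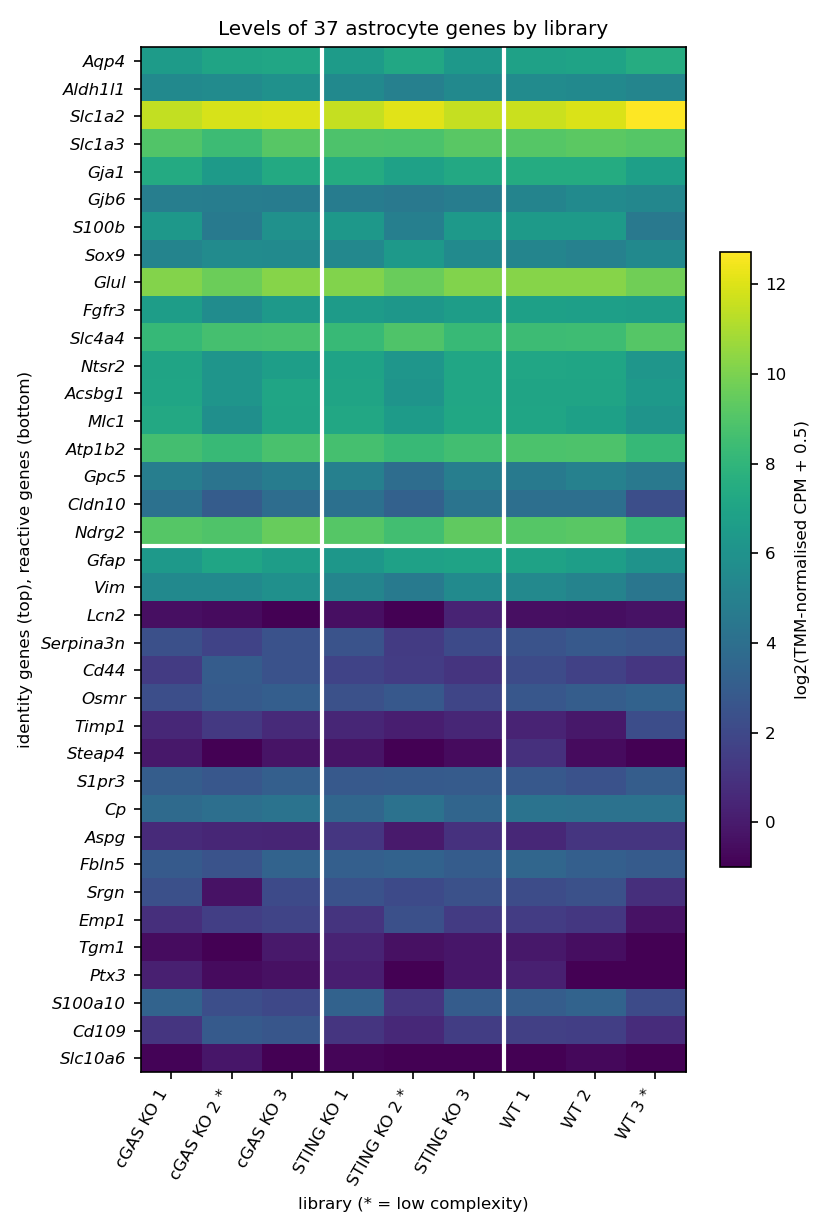
Heat map of log2(TMM-normalised CPM + 0.5) for the 37 genes (rows, identity genes above the white line and reactive genes below) in the 9 libraries (columns, cGAS KO, STING KO, then WT; asterisks mark low-complexity libraries). Slc1a2 is the brightest row, and Lcn2, Steap4, Tgm1, Ptx3 and Slc10a6 are dark.

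In cGAS KO striatum no astrocyte gene passed the test against WT. Gjb6, the gene of the gap junction protein connexin 30, had the smallest p of the identity genes, with 27.5 ± 0.997 CPM in cGAS KO striatum against 41.4 ± 5.62 CPM in WT striatum (SD, n = 3 each). Cd109, a surface protein that binds TGF-beta in human cells, had the smallest p of the reactive genes. By edgeR's quasi-likelihood test with Benjamini-Hochberg adjustment, 0 of 18 identity genes and 0 of 15 reactive genes were called at 0.05, and 0% of all 17821 genes were. DESeq2 and limma-voom also called 0 of them. Of these genes 1 had an unadjusted p under 0.05, Gjb6, on the lower side, and 0 on the higher side. Of all genes 2.03% had such a p, 1.04% higher and 0.982% lower. The median log2 fold change was -0.11 over identity genes (5 positive, 13 negative) and -0.19 over tested reactive genes (7 positive, 8 negative), beside -0.01 over all genes, of which 48.5% were positive. Without the low-complexity libraries these medians were -0.04 and -0.09, beside -0.002 over all genes. In that edgeR fit 1 of 18 identity and 1 of 15 reactive genes had an unadjusted p under 0.05, beside 4.2% of all genes.

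In STING KO striatum no astrocyte gene passed the edgeR test against WT. Gjb6 had the smallest p of the identity genes, with 25.7 ± 2.41 CPM in STING KO striatum against 41.4 ± 5.62 CPM in WT striatum (SD, n = 3 each), and Osmr, a receptor subunit for oncostatin M, had the smallest p of the reactive genes. The same WT libraries serve both knockout comparisons, so values stand side by side and no likeness is drawn from them. edgeR's quasi-likelihood test with Benjamini-Hochberg adjustment called 0 identity and 0 reactive genes, beside 0% of all genes. The smallest edgeR adjusted p of any gene was 0.766, though log2 fold changes reached -8.26. DESeq2 and limma-voom called 0 identity and 0 reactive genes too. With library quality weights limma-voom called Gjb6 and Cp, among 178 genes in all. An unadjusted p under 0.05 was held by 1 of these genes, Gjb6, lower, and by 1.63% of all genes, 0.898% higher and 0.735% lower. The median log2 fold change was -0.11 over identity genes (4 positive, 14 negative) and -0.22 over tested reactive genes (6 positive, 9 negative), beside -0.0044 over all genes, 49.4% of them positive. Without the low-complexity libraries these medians were -0.10 and -0.14, beside 0.0015 over all genes. In that edgeR fit 2 of 18 identity and 1 of 15 reactive genes had an unadjusted p under 0.05, beside 6.9% of all genes.

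In STING KO against cGAS KO striatum the identity genes had a median log2 fold change of -0.01 (8 positive, 10 negative) and the tested reactive genes one of -0.10 (6 positive, 9 negative), beside 0.008 over all genes, 51.1% of them positive. By edgeR 0 of either list were called, as by DESeq2 and limma-voom, and 0% of all genes were. Cd109, lower in STING KO, was the 1 gene of both lists with an unadjusted p under 0.05, which 1.45% of all genes had, 0.825% higher and 0.623% lower. Without the low-complexity libraries the identity and reactive medians were -0.02 and -0.16, beside 0.0048 over all genes. In that edgeR fit 0 of 18 identity and 1 of 15 reactive genes, Cp, had an unadjusted p under 0.05, beside 3.7% of all genes.

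**Figure D3:**
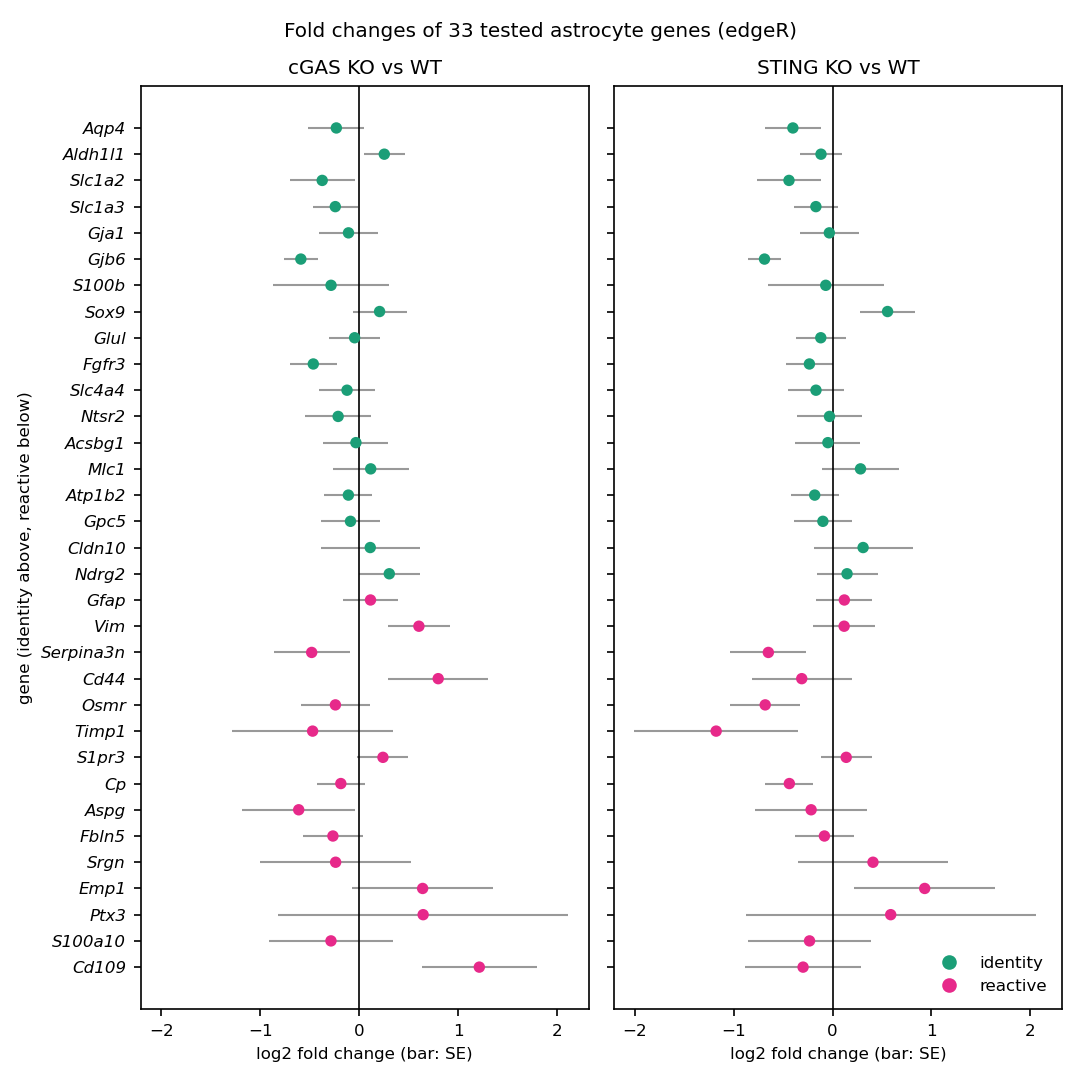
Log2 fold change (points) and SE (bars) from edgeR for the 33 tested genes, cGAS KO against WT on the left and STING KO against WT on the right. Gjb6 lies at -0.59 and -0.69, and Ptx3, the gene with the fewest counts among those tested, has the longest bar, with an SE of 1.47 in both.

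Of the astrocyte connexins, Gjb6 lay lower in both knockouts and Gja1 overlapped between genotypes. Gjb6 (ENSMUSG00000040055, chromosome 14, 57123303 to 57133611, minus strand, GRCm38) had 28.3, 27.8 and 26.4 CPM in cGAS KO striatum, 26.3, 23.1 and 27.8 CPM in STING KO striatum and 36.0, 47.2 and 41.0 CPM in WT striatum. Each of the 6 knockout libraries lay below each WT library, low-complexity libraries included. Of all genes tested, 4% lay wholly below WT in cGAS KO and 3.67% in STING KO. Both shares rest on the same WT libraries, and the share below in both knockouts was not counted. The log2 fold change was -0.59 (SE 0.17) in cGAS KO against WT by edgeR (unadjusted p = 0.00638, adjusted p = 0.9999) and -0.69 (SE 0.17) in STING KO against WT (unadjusted p = 0.00257, adjusted p = 0.9999). Without the low-complexity libraries it was -0.60 (SE 0.17) with an edgeR adjusted p of 0.971, and -0.62 (SE 0.17) with an adjusted p of 0.586. Between STING KO and cGAS KO it was -0.10 (SE 0.17). The pooled coefficient of variation of Gjb6 within groups was 11.3%, the lowest of the 18 identity genes, whose median was 26.6%. Gja1, connexin 43, had 169, 88.6 and 163 CPM in cGAS KO striatum, 173, 117 and 154 CPM in STING KO striatum and 173, 174 and 106 CPM in WT striatum. Its lowest library in each genotype was the low-complexity one, and its log2 fold changes against WT were -0.11 (SE 0.30) in cGAS KO and -0.03 (SE 0.29) in STING KO, or -0.07 (SE 0.13) and -0.09 (SE 0.13) without those libraries. As a share of the CPM of both connexins, Gjb6 made up 14.35%, 23.91% and 13.91% in cGAS KO, 13.19%, 16.48% and 15.3% in STING KO and 17.21%, 21.31% and 27.9% in WT. The STING KO shares lay below the WT shares, and cGAS KO overlapped WT.

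The promoter of Gjb6 is shown because Gjb6 had the smallest p against WT in both knockouts, and that of Gfap because Gfap was the most abundant reactive gene per kilobase. Both are RefSeq windows on GRCm38.p6, 250 bases before to 50 after the annotated start, at chr14:57133562-57133861 for Gjb6 and chr11:102897151-102897450 for Gfap, minus strand, printed 5′ to 3′. Capitals mark a match to the STAT motif TTCNNNGAA, whose letters read the same on both strands.
Gjb6: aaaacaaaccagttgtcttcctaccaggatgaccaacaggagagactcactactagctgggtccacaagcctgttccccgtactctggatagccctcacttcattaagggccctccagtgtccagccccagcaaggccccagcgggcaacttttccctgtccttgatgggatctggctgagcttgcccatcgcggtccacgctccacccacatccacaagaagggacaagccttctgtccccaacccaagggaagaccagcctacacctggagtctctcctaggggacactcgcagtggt
Gfap: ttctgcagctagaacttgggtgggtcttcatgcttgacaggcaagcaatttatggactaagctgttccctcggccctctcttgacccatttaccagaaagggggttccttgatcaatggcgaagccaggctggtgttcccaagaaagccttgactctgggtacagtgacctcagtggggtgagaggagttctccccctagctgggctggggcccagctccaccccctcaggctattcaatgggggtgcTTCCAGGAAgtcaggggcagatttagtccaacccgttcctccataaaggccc
The Gfap window held 1 STAT match, starting 2 bases before the annotated RefSeq start. This window lies wholly inside the gene span given for Gfap below, so its start is not the start of that span. The Gjb6 window held neither the STAT letters nor those of the AP-1 motif TGANTCA, which also reads the same on both strands. Windows were matched for 32 of the 37 genes, 42 in all. The STAT letters stood in 3 of 20 identity windows (Acsbg1, Ntsr2, Slc1a3) and 4 of 22 reactive windows (Emp1, Gfap, Steap4, Tgm1), and in 8.30% of all 32851 windows. The AP-1 letters stood in 1 identity window (Gja1) and 3 reactive windows (Cp, Emp1, Osmr), and in 7.81% of all. In Emp1 the STAT letters at -22 and the AP-1 letters at -25 from the annotated start overlap, while those at -120 and -145 stand apart. The SOX motif ACAANG, or CNTTGT on the other strand, stood in 3 identity and 7 reactive windows, and in 41.25% of all. A match describes letters only.

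Glutamate handling was led by Slc1a2, the transporter GLT-1 (ENSMUSG00000005089, chromosome 2, 102658659 to 102790784, plus strand, GRCm38), which had 2834, 3765 and 4041 CPM in cGAS KO striatum, 2876, 4392 and 2895 CPM in STING KO striatum and 3194, 3864 and 6733 CPM in WT striatum. The genotypes overlapped, and WT replicate 3 was the highest library. Its log2 fold change was -0.37 (SE 0.33) in cGAS KO and -0.44 (SE 0.33) in STING KO against WT, and -0.04 (SE 0.22) and -0.29 (SE 0.22) without the low-complexity libraries. Glul, which turns glutamate into glutamine, had 1165, 781 and 1202 CPM in cGAS KO striatum, 1097, 773 and 1125 CPM in STING KO striatum and 1177, 1219 and 855 CPM in WT striatum. The low-complexity library was the lowest of each genotype, and the log2 fold changes were -0.05 (SE 0.25) in cGAS KO and -0.12 (SE 0.25) in STING KO against WT, or -0.02 (SE 0.15) and -0.11 (SE 0.15) without those libraries. Slc1a3, the transporter GLAST, ranged over 338 to 604 CPM, and Acsbg1, an acyl-CoA synthetase, over 67.0 to 137 CPM. Aldh1l1, a folate enzyme, had the smallest p of the identity genes between the knockouts, with 44.6, 30.6 and 45.7 CPM in STING KO striatum, 45.5, 49.5 and 61.2 CPM in cGAS KO striatum and 48.8, 44.3 and 37.9 CPM in WT striatum. STING KO replicate 2 was the lowest library, the knockouts met at 45.7 and 45.5 CPM, and the log2 fold change was -0.37 (SE 0.21), with an edgeR unadjusted p of 0.108, and -0.24 (SE 0.17) without the low-complexity libraries.

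The water and ion handling genes overlapped between genotypes. Aqp4, the water channel of the endfeet, averaged 119 ± 23.8 CPM in cGAS KO striatum, 106 ± 36.5 CPM in STING KO striatum and 139 ± 35.8 CPM in WT striatum (SD, n = 3 each). Without the low-complexity libraries Aqp4 had a log2 fold change of -0.49 (SE 0.19) in STING KO against WT. The edgeR unadjusted p was 0.0332 and the adjusted p 0.699. In that fit 2 of 18 identity genes and 6.9% of all genes had an unadjusted p under 0.05. Slc4a4, a sodium bicarbonate cotransporter, ranged over 289 to 541 CPM, Atp1b2, a sodium pump subunit, over 292 to 479 CPM, and Mlc1, a membrane protein of the endfeet, over 56.5 to 156 CPM.

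Of the receptors and regulators of identity, Fgfr3, a fibroblast growth factor receptor, had 97.9, 50.5 and 80.6 CPM in cGAS KO striatum, 93.4, 76.3 and 99.0 CPM in STING KO striatum and 111, 105 and 99.2 CPM in WT striatum. All knockout libraries lay below all WT libraries, though STING KO replicate 3 and WT replicate 3 were almost equal. The log2 fold change was -0.46 (SE 0.24) in cGAS KO and -0.23 (SE 0.23) in STING KO, with edgeR unadjusted p of 0.0781 and 0.344, and -0.28 (SE 0.14) and -0.17 (SE 0.14) without the low-complexity libraries. Sox9, a transcription factor of the astrocyte lineage, averaged 43.8 ± 7.22 CPM in cGAS KO striatum, 55.9 ± 21.5 CPM in STING KO striatum and 38.0 ± 6.51 CPM in WT striatum (SD, n = 3 each), and its highest value, 80.6 CPM, was in STING KO replicate 2. Ndrg2, an abundant cytosolic protein, had 543, 486 and 738 CPM in cGAS KO striatum, 547, 379 and 659.7 CPM in STING KO striatum and 545, 586 and 301 CPM in WT striatum. The genotypes overlapped, with log2 fold changes of 0.30 (SE 0.31) in cGAS KO and 0.15 (SE 0.31) in STING KO, or 0.18 (SE 0.19) and 0.09 (SE 0.19) without the low-complexity libraries. Ntsr2, a neurotensin receptor, ranged over 71.0 to 141 CPM, Gpc5, a glypican, over 14.7 to 31.7 CPM and Cldn10 over 4.39 to 19.2 CPM. S100b, a calcium-binding protein, had the widest spread within genotypes of the identity genes, a pooled coefficient of variation of 52.2%.

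Of the intermediate filaments, Gfap (ENSMUSG00000020932, chromosome 11, 102887336 to 102900912, minus strand, GRCm38) had 84.0, 131 and 98.0 CPM in cGAS KO striatum, 76.9, 116 and 122 CPM in STING KO striatum and 121, 103 and 64.5 CPM in WT striatum. The genotypes overlapped. The log2 fold change was 0.11 (SE 0.28) in cGAS KO and 0.12 (SE 0.28) in STING KO against WT with all libraries, and -0.30 (SE 0.21) and -0.18 (SE 0.21) without the low-complexity libraries, so its sign depends on them. Vim (ENSMUSG00000026728, chromosome 2, 13573927 to 13582826, plus strand, GRCm38) had 45.5, 45.1 and 59.6 CPM in cGAS KO striatum, 37.1, 23.8 and 46.3 CPM in STING KO striatum and 43.6, 34.8 and 20.4 CPM in WT striatum. Each cGAS KO library lay above each WT library, and STING KO overlapped WT. The log2 fold change was 0.60 (SE 0.32) in cGAS KO, with an edgeR unadjusted p of 0.0862, and 0.12 (SE 0.31) in STING KO, against 0.42 (SE 0.19) and 0.09 (SE 0.19) without the low-complexity libraries. Of the 33 tested identity and reactive genes, Vim was the 1 whose cGAS KO libraries all lay above WT, as those of 4% of all genes did, and 0 of the 33 lay above WT in all STING KO libraries, where 3.4% of all genes did.

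Secreted and matrix proteins were low to moderate. Serpina3n had 4.58, 2.87 and 4.98 CPM in cGAS KO striatum, 5.22, 2.09 and 3.75 CPM in STING KO striatum and 5.24, 6.55 and 5.59 CPM in WT striatum. All knockout values lay below all WT values, STING KO replicate 1 and WT replicate 1 being almost equal. Its log2 fold change was -0.48 (SE 0.38) in cGAS KO and -0.65 (SE 0.38) in STING KO, with edgeR unadjusted p of 0.239 and 0.123. Over the 6 libraries of usual complexity it was -0.30 (SE 0.27) in cGAS KO and -0.40 (SE 0.27) in STING KO, and leaving out single libraries gave -0.63 to -0.27 in cGAS KO, nearest to 0 without cGAS KO replicate 2, and -0.98 to -0.37 in STING KO, nearest to 0 without STING KO replicate 2 and farthest without STING KO replicate 1. Cp, the ferroxidase ceruloplasmin, had 12.8, 15.3 and 18.3 CPM in cGAS KO striatum, 11.1, 17.3 and 10.7 CPM in STING KO striatum and 18.1, 17.3 and 17.47 CPM in WT striatum. STING KO lay below WT, with STING KO replicate 2 and WT replicate 2 almost equal, and cGAS KO overlapped WT. The log2 fold change was -0.19 (SE 0.24) in cGAS KO and -0.44 (SE 0.24) in STING KO. Over the 6 libraries of usual complexity it was -0.19 (SE 0.21) in cGAS KO and -0.70 (SE 0.21) in STING KO. The second had an edgeR unadjusted p of 0.00946 and an adjusted p of 0.645. In that comparison 1 of 15 tested reactive genes, Cp, and 6.9% of all genes had an unadjusted p under 0.05. Cp shares 108 exon bases with Hps3 on the opposite strand, and how the counting treated strand is not stated. Of the 33 tested genes, wholly below WT in cGAS KO were Gjb6, Fgfr3 and Serpina3n, as were 4% of all genes, and in STING KO these 3 and Cp, as were 3.67% of all genes. Fbln5, an elastic fibre protein, ranged over 5.13 to 11.2 CPM, and Srgn, a proteoglycan of immune cells and endothelium, over 0.302 to 5.04 CPM.

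Of the receptors and surface proteins, Cd109 (ENSMUSG00000046186, chromosome 9, 78615546 to 78716253, plus strand, GRCm38) had 1.68, 0.976 and 2.35 CPM in STING KO striatum, 1.68, 6.94 and 5.76 CPM in cGAS KO striatum and 2.53, 2.42 and 1.203 CPM in WT striatum. The high values were cGAS KO replicates 2 and 3, and cGAS KO replicate 1 lay within the range of the other genotypes. In STING KO against cGAS KO the log2 fold change was -1.51 (SE 0.59) by edgeR, unadjusted p = 0.0285 and adjusted p = 1, and -0.87 (SE 0.53), unadjusted p = 0.138, without the low-complexity libraries. Against WT it was 1.21 (SE 0.58) in cGAS KO, edgeR unadjusted p = 0.0637, and -0.30 (SE 0.58) in STING KO, or 0.58 (SE 0.52) and -0.29 (SE 0.54) without those libraries. Cd44, the hyaluronan receptor, had 2.15, 7.47 and 4.91 CPM in cGAS KO striatum, 2.86, 2.23 and 1.62 CPM in STING KO striatum and 3.84, 2.68 and 1.77 CPM in WT striatum, and its highest values were in the same cGAS KO libraries as those of Cd109. Osmr had 4.47, 6.94 and 8.19 CPM in cGAS KO striatum, 4.79, 6.48 and 3.19 CPM in STING KO striatum and 6.14, 7.62 and 9.41 CPM in WT striatum. STING KO replicate 2 overlapped WT, and STING KO over WT gave a log2 fold change of -0.68 (SE 0.35), with an edgeR unadjusted p of 0.0845, and -0.79 (SE 0.35) without the low-complexity libraries. S1pr3, a receptor for sphingosine-1-phosphate, ranged over 5.05 to 8.45 CPM. Leaving out the low-complexity libraries, S1pr3 had 0.53 (SE 0.23) as its log2 fold change in cGAS KO over WT. The edgeR unadjusted p was 0.0475 and the adjusted p 0.971. S1pr3 was the 1 of 15 tested reactive genes with an unadjusted p under 0.05 in that fit, as 4.2% of all genes had. Emp1, a tetraspan membrane protein, ranged over 0.283 to 4.67 CPM, S100a10 over 1.67 to 9.80 CPM, and Aspg, an asparaginase, over 0.488 to 1.74 CPM. Between the knockouts, Timp1 was the 1 of the 33 tested genes whose STING KO libraries all lay below cGAS KO, with a log2 fold change of -0.71 (SE 0.83) and an edgeR unadjusted p of 0.416, as 3.72% of all genes did. Its fold change was -0.16 (SE 0.49) without the low-complexity libraries and -0.31 without cGAS KO replicate 2 alone. Wholly above cGAS KO were 0 of them, beside 3.63% of all genes.

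**Figure D4:**
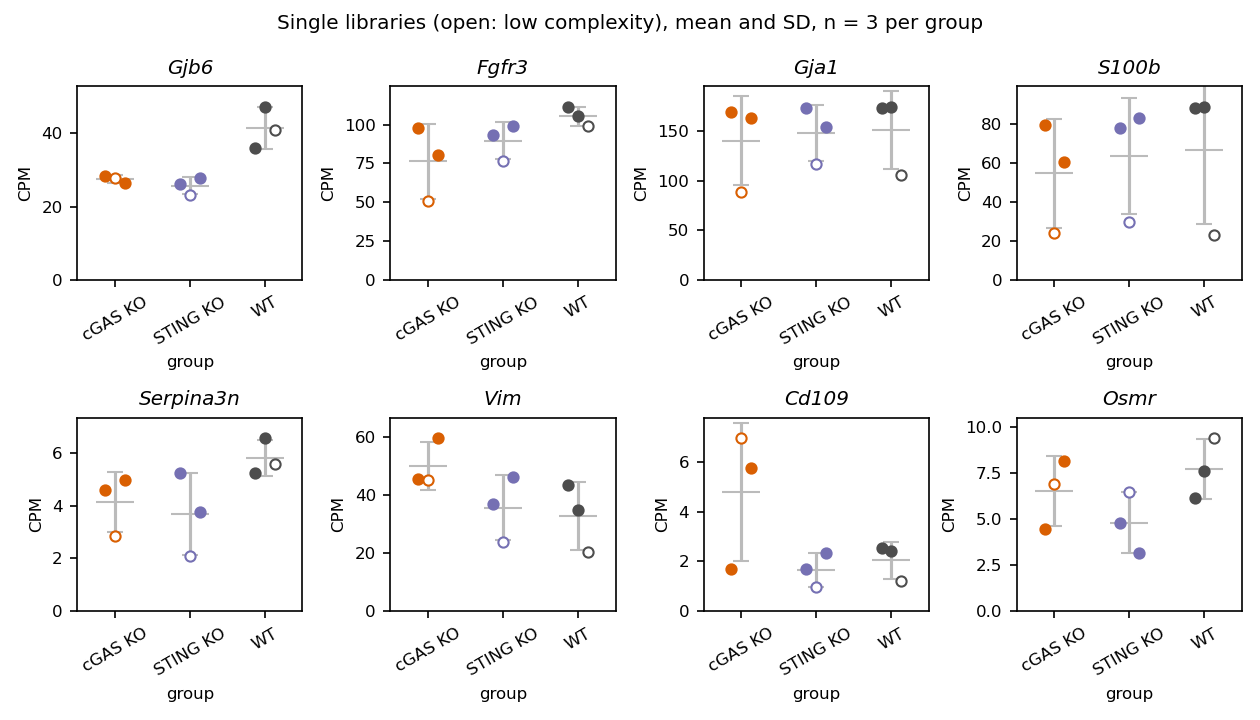
CPM of Gjb6, Fgfr3, Gja1, S100b, Serpina3n, Vim, Cd109 and Osmr in each library by genotype (cGAS KO, STING KO, WT); open points are low-complexity libraries, and bars give the mean and SD (n = 3). In Gjb6 both knockouts lie below WT, in Cd109 cGAS KO replicates 2 and 3 are high, and in S100b and Gja1 the open points are the lowest of each genotype.

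Within each genotype, identity genes differed in both directions between the low-complexity library and the other 2. Values were lower in all 3 low-complexity libraries for 13 of the 18 identity genes and higher in all 3 for 4, which were Aqp4, Slc1a2, Slc4a4 and Sox9. Taken singly, 27.8%, 22.2% and 22.2% of identity genes were higher in the low-complexity library of cGAS KO, STING KO and WT. At least as abundant as the lowest identity gene were 30 other astrocyte genes, of which 30%, 33.3% and 30% were higher. Of all 9242 genes at that level, 50.1%, 46.65% and 47.3% were. For S100b the difference in log2(CPM + 0.5) was -1.52 in cGAS KO, -1.43 in STING KO and -1.93 in WT, and for Slc1a2 it was 0.13, 0.61 and 0.93. Across the 18 genes the difference went with the log2 of exon length, at a Pearson r of 0.487 in cGAS KO, 0.642 in STING KO and 0.741 in WT. Across the 9242 genes at least as abundant as the lowest identity gene r was 0.512, 0.570 and 0.644. These points are genes that share a library and its depth, not replicates, and r is a description with no test.

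**Figure D5:**
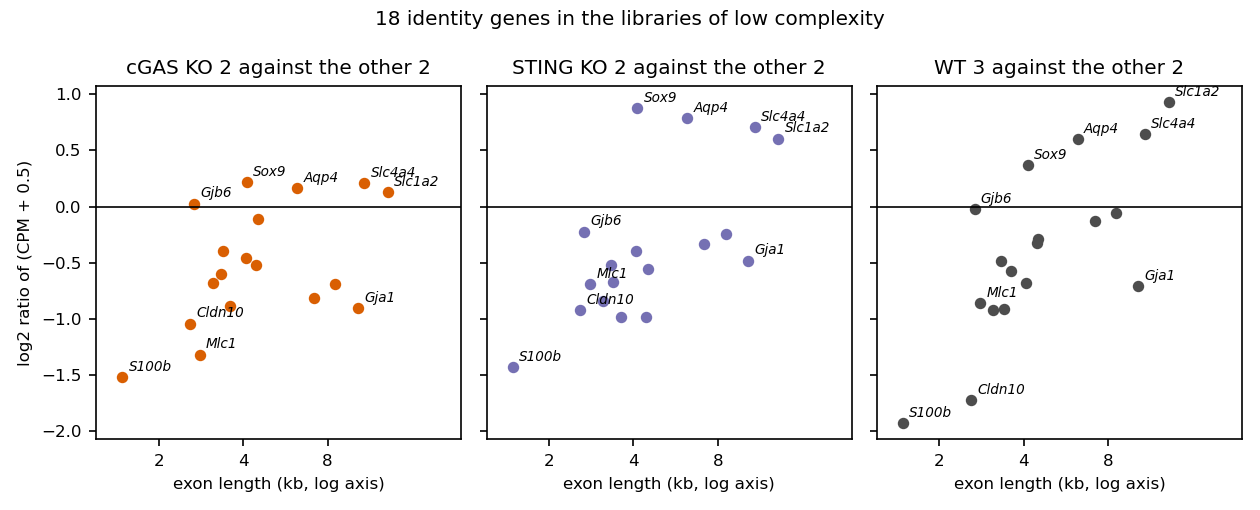
Log2 ratio of CPM + 0.5 in the low-complexity library over the other 2 libraries of its genotype, against exon length in kb (log axis), for the 18 identity genes, with a panel each for cGAS KO, STING KO and WT. S100b, the shortest gene, is lowest in each panel, and Slc1a2, Slc4a4, Aqp4 and Sox9 lie above 0 in all 3.

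As whole lists, identity and reactive genes overlapped between genotypes. The mean log2(CPM + 0.5) of the identity genes was 6.73 to 7.27 in cGAS KO, 6.85 to 7.23 in STING KO and 6.90 to 7.31 in WT. For the reactive genes it was 1.80 to 2.01 in cGAS KO, 1.55 to 1.91 in STING KO and 1.58 to 2.05 in WT. In the 3 low-complexity libraries the identity mean was 6.73 to 6.90, against 7.17 to 7.31 in the other 6, and the reactive mean 1.55 to 1.80 against 1.83 to 2.05. The summed levels overlapped, at 6731 to 10058 CPM against 6699.6 to 8406 CPM for identity genes and 147 to 238 CPM against 175 to 237 CPM for reactive genes. The identity sum is weighted to Slc1a2, which was higher in each low-complexity library and had 6733 of the 10058 CPM in WT replicate 3. The mean over 15 microglia and macrophage markers was 2.98 to 3.31 in those 3 libraries against 4.29 to 4.47, with a summed level of 269 to 316 CPM against 447 to 557 CPM. The mean over 12 endothelial markers was 4.23 to 4.33 against 4.54 to 4.78, while their summed level overlapped at 357 to 405 CPM against 358 to 454 CPM. Their part in the values of Srgn, Vim and Cd44 was not tested. Infiltrating leukocyte markers, 10 genes, summed to 15.2 to 23.1 CPM in cGAS KO, 17.1 to 26.7 CPM in STING KO and 15.8 to 23.7 CPM in WT, with 3 to 7 of the 10 at 0 counts in a library. Cortical neuron markers, which a striatal dissection can include, had a median log2 fold change of -0.70 in cGAS KO against WT, with 10 of 10 negative, and -0.16 in STING KO against WT, with 8 of 10 negative. The genotypes overlapped, at a mean log2(CPM + 0.5) of 4.06 to 5.58 in cGAS KO, 4.93 to 5.74 in STING KO and 4.17 to 6.42 in WT. For 11 choroid plexus markers the medians were -2.65 with 11 negative in cGAS KO and -0.53 with 9 negative in STING KO. Here too the genotypes overlapped, and WT replicate 1 stood apart, at a mean of 5.49 against 1.92 in WT replicate 2 and 1.22 in WT replicate 3. Of 13 spiny neuron markers, which define the striatum, 12 were positive in cGAS KO (median 0.23) and 12 in STING KO (median 0.16). Their mean log2(CPM + 0.5) was 7.88 in WT replicate 3 and 8.77 to 9.17 in the other 8 libraries. The part of these tissues in the astrocyte values was not tested.

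Other astrocyte genes, a list of 36 that were all tested, had a median log2 fold change of 0.07 in cGAS KO against WT (23 positive, 13 negative), 0.02 in STING KO against WT (20 positive, 16 negative) and -0.11 in STING KO against cGAS KO (11 positive, 25 negative). edgeR called 0 in each. Those with an unadjusted p under 0.05 numbered 3 in cGAS KO, which were Slc13a3, a dicarboxylate transporter, at 0.53 (SE 0.23), Id4, an inhibitor of helix-loop-helix factors, at 0.51 (SE 0.17), and the orphan receptor gene Gpr37l1 at 0.41 (SE 0.18). In STING KO there was 1, Dio2, a deiodinase that activates thyroid hormone, at -0.56 (SE 0.19), and between STING KO and cGAS KO 1, Itih3, a hyaluronan-binding inhibitor chain, at -0.77 (SE 0.22). Of all genes 2.03%, 1.63% and 1.45% had such a p in these 3 comparisons, and 48.5%, 49.4% and 51.1% were positive. Wholly above WT were 6 of the 36 in cGAS KO (Slc13a3, Slc27a1, Id4, Gldc, Gpr37l1 and Phkg1), beside 4% of all genes, and 2 in STING KO (Slc27a1 and Id4), beside 3.4%. Wholly below WT were 1 in cGAS KO (Dio2), beside 4%, and 4 in STING KO (Slc39a12, Cbs, Dio2 and Itih3), beside 3.67%. Sparcl1, a matrix protein that promotes synapses, averaged 719 ± 259 CPM in cGAS KO striatum, 702 ± 356 CPM in STING KO striatum and 759.9 ± 302 CPM in WT striatum, and Apoe, the lipid carrier, 638 ± 408 CPM in cGAS KO striatum, 699 ± 464 CPM in STING KO striatum and 472 ± 341 CPM in WT striatum (SD, n = 3 each).

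Further reactive genes, none of them in the reactive list above, gave 0 calls by edgeR, beside 0% of all genes. The A1 and A2 genes counted here leave out any that the reactive list holds. Their medians therefore describe these further genes and not the whole A1 and A2 sets. Of 9 further A1 genes, all tested, 6 were positive in cGAS KO (median 0.10) and 6 in STING KO (median 0.16). An unadjusted p under 0.05 was held by 0 of them, beside 2.03% of all genes in cGAS KO and 1.63% in STING KO against WT. Fkbp5, a co-chaperone induced by glucocorticoids, averaged 48.5 ± 5.53 CPM in cGAS KO striatum, 39.4 ± 4.74 CPM in STING KO striatum and 45.3 ± 10.99 CPM in WT striatum (SD, n = 3 each). Of 6 further A2 genes 5 were tested, and 3 were positive in cGAS KO (median 0.22) and 3 in STING KO (median 0.0043). B3gnt5, a glycosyltransferase among these further A2 genes, had their 1 unadjusted p under 0.05, 0.0412 by edgeR in cGAS KO against WT. Its log2 fold change was 1.08 (SE 0.46), and 2.03% of all genes had such a p. Of the general reactive genes, Cxcl10, an interferon-induced chemokine, did not pass the filter, and Hspb1, a small heat shock protein, averaged 3.87 ± 2.09 CPM in cGAS KO striatum, 3.50 ± 1.74 CPM in STING KO striatum and 4.30 ± 2.38 CPM in WT striatum (SD, n = 3 each). Of 17 genes of the gp130 and STAT3 pathway 13 were tested, with median log2 fold changes of 0.10 (cGAS KO) and 0.10 (STING KO) relative to WT. Of these 13, 0 had an unadjusted p under 0.05, beside 2.03% and 1.63% of all genes. Stat3 itself stood at 50.8 to 58.7 CPM in cGAS KO, 51.3 to 57.7 CPM in STING KO and 49.7 to 51.1 CPM in WT. Its cGAS KO values overlapped WT, and the lowest STING KO and highest WT values were almost equal. Stat3 was the 1 of the 13 wholly above WT in STING KO, beside 3.4% of all genes. The ligand gene Il6 had 0 counts in 7 of the 9 libraries.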

How the data were processed

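The authors deposited whole-number counts for each Ensembl gene ID, 1 file per library, from polyadenylated RNA of striatum. The submitters' processing notes name HISAT2, featureCounts and mm10. Their versions, the annotation used, strandedness and multi-mapping rules are not stated. Names, positions and exon lengths were taken from GENCODE M21 (GRCm38), in which 54495 of the 54532 IDs were found.

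All 9 libraries entered 1 fit in edgeR 4.0.16 (R 4.3.3): TMM factors, filterByExpr, which kept 17821 genes, and the quasi-likelihood F test, with Benjamini-Hochberg adjustment over those genes and a threshold of 0.05. Each SE is the fold change divided by the root of its F statistic. The members and lists were chosen with earlier results of these data known. The rule for naming gave values in every library to the 3 most abundant identity and reactive genes, and to those with an unadjusted p under 0.05 in a comparison, or otherwise the smallest p; of each other list up to 2 abundant genes. Further genes, among them those whose groups did not overlap, were chosen after their values were seen. DESeq2 1.42.0, limma 3.58.1, other scalings, filters and subsets of libraries were alternatives. Within a group no libraries agreed within sampling noise (chi-square per degree of freedom 7.95 to 152).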

Additional observations from a re-analysis of the deposited data

How the results depend on the processing

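Over 20 alternatives Gjb6 stayed negative in both knockouts against WT (cGAS KO -0.73 to -0.50, adjusted p 0.0685 to 1 by the test of each; STING KO -0.77 to -0.59, adjusted p 0.0151 to 1). It passed the threshold in 1 of them, limma-voom with library quality weights in STING KO against WT (-0.71, adjusted p = 0.0151), where 1 reactive gene, Cp, also passed (-0.67, adjusted p = 0.0383). No other alternative called any of the 37 genes. Over all genes, where edgeR called 0 and 361, 291 and 258 had an unadjusted p under 0.05, the quality weights called 4 for cGAS KO over WT, 178 for STING KO over WT and 29 for STING KO over cGAS KO, and DESeq2 without a count filter 1, 10 and 8. For STING KO over WT and over cGAS KO, edgeR without a count filter called 4 and 4, without the low-complexity libraries 4 and 3, and with low complexity as a covariate 1 and 1. The cause was not tested.

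The reactive median in cGAS KO against WT was 0.14 with limma-voom and 0.0232 with quality weights. Leaving out single libraries gave -0.18 to 0.0752 for cGAS KO over WT, highest without WT replicate 2, -0.30 to 0.045 for STING KO over WT, highest without STING KO replicate 2 and at 0.0079 without WT replicate 1, and -0.38 to -0.0876 for STING KO over cGAS KO, lowest without STING KO replicate 1. The identity median ran from -0.22 to 0.0734 in cGAS KO and -0.22 to 0.0827 in STING KO, highest without that genotype's replicate 2. Uncalled genes changed sign. With quality weights Slc1a2 was 0.02 and Gfap -0.0812 in cGAS KO, and Gfap -0.0401 in STING KO. Without the low-complexity libraries Gfap was -0.30 and -0.18. Leaving out single libraries gave -0.57 to 0.0052 for Slc1a2, -0.19 to 0.13 for Glul and -0.11 to 0.32 for Gfap in cGAS KO, and -0.27 to 0.0393 for Glul, -0.10 to 0.34 for Ndrg2, -0.10 to 0.32 for Gfap and -0.13 to 0.38 for Vim in STING KO. Cd109 in STING KO against cGAS KO was -1.15 without cGAS KO replicate 2.

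Same-numbered libraries of different genotypes had deviations from their group means correlated at -0.528 to 0.571. The low-complexity libraries do not all share a number, and those of cGAS KO and WT correlated at 0.604. Whether the numbers pair libraries therefore cannot be told from these correlations. With the replicate block 0 genes were called, and Gjb6 was -0.59 in cGAS KO and -0.68 in STING KO against WT. Depth limits Lcn2, Steap4, Tgm1, Ptx3 and Slc10a6, at 0 to 30 counts per library.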
